A study of Mus musculus with 4 samples.

Results

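The Ikaros zinc finger family comprises Ikzf1 (Ikaros), Ikzf2 (Helios), Ikzf3 (Aiolos), Ikzf4 (Eos) and Ikzf5 (Pegasus). Its members were the 5 rows, of 23420 in the count files, whose symbol is 1 of these names. All 5 members passed the filter on low counts, which left 12610 genes for testing. All 4 libraries came from 1 mouse large pre-B cell line of the labelled genotype Irf4/8-/-, deficient for the transcription factors Irf4 and Irf8. The cells were cultured on OP9 stromal cells with 10 ng/ml of interleukin 7 and infected, with polybrene, with a GFP retrovirus whose hairpin RNA was aimed at Myb (shMyb) or, as the control, at luciferase (shLuc). Fluorescent cells were sorted 72 hours later, and each group had 2 libraries from duplicate sets of 12 wells, which are replicates of transduction in 1 line and not of animals. The hairpin's target transcript was not lower. Myb stood at 616 and 600.1 CPM (counts per library total, scaled by TMM) in the control and at 617 and 639 CPM in the libraries labelled shMyb, a log2 fold change of 0.05 (edgeR adjusted p = 0.283). It was called higher with library totals in place of TMM (0.11, edgeR adjusted p = 0.0109) and after correction for the trend of fold change with abundance (0.16, 0.00032), and without shLuc replicate 2 or shMyb replicate 2 it was at 0.02. Directions below are therefore between the libraries labelled shMyb, for short shMyb, and the shLuc libraries.

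Ikaros family proteins bind DNA through N-terminal zinc fingers and pair with each other through C-terminal zinc fingers. Ikaros and Aiolos recruit the NuRD remodelling and deacetylase complex. In pre-B cells they are known to restrain Myc, cyclin D3 and the surrogate light chain genes as cells leave the dividing large stage, and Irf4 and Irf8 are known to raise them. Helios and Eos are best known from T cells, among them regulatory T cells, and Pegasus is the most divergent member.

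Of the family's genes, Ikzf5 alone shares most of its exon length with another gene. In GENCODE M21 (GRCm38, also called mm10), all 5 were protein coding. Ikzf1 lies on chromosome 11 from 11685003 to 11772926 on the plus strand, and Ikzf3 on the same chromosome from 98464902 to 98546031 on the minus strand. Ikzf2 lies on chromosome 1 from 69531214 to 69687245, Ikzf4 on chromosome 10 from 128630843 to 128645991 and Ikzf5 on chromosome 7 from 131388652 to 131410521, all on the minus strand. No exon of Ikzf1 or Ikzf3 overlapped another annotated gene. Exons of Ikzf2 shared 144 bases with the antisense gene Gm29114, and those of Ikzf4 shared 37 bases with Gm26876 on the opposite strand. Exons of Ikzf5 shared 4652 bases, 81.3% of their joint length, with Pstk, the gene of a tRNA-modifying kinase on the opposite strand, and 183 bases with Gm44624, also opposite. Although the library kit was directional, the strand setting of the counting is not given in the sources used here, so reads of Ikzf5 and Pstk may not have been separated.

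RefSeq's table for GRCm38.p6 held start windows for 2 of the 5 members, Ikzf1 with 2 starts and Ikzf5 with 1. They are shown because Ikaros recognises a GGGAA core, so a reader can see where these letters stand before a member's own start. Each is the 250 bases before the start, 5′ to 3′ on the gene's strand, with GGGAA or its reverse complement TTCCC in capitals.
Ikzf1, upstream start, chr11:11685675-11685924, plus strand: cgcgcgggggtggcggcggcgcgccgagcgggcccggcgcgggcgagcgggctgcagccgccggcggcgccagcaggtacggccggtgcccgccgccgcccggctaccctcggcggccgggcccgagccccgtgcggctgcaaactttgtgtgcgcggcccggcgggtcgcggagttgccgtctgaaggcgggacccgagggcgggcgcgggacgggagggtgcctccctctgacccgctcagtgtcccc
Ikzf1, downstream start, chr11:11689927-11690176, plus strand: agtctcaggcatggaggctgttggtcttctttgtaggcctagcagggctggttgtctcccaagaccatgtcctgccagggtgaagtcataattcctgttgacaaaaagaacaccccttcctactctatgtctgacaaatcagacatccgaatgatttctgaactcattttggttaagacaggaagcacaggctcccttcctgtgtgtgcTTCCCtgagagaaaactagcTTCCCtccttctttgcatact
Ikzf5, chr7:131410479-131410728, minus strand: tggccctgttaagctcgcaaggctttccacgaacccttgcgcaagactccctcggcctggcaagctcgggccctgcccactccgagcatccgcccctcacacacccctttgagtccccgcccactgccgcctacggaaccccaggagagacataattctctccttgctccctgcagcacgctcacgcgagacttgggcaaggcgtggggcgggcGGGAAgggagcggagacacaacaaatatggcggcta
The upstream Ikzf1 window had a GC content of 82.0% and no GGGAA on either strand. The downstream Ikzf1 window, at 47.6% GC, held 2 matches, which begin 41 and 21 bases before the start. The Ikzf5 window, at 64.0% GC, held 1, beginning 36 bases before the start. GGGAA stands on either strand in 56.2% of all 32851 RefSeq windows, and their median GC content was 52.4%. The Myb core AACNG, searched on both strands, had 2 matches in the downstream Ikzf1 window, 1 in that of Ikzf5 and none in the upstream Ikzf1 window, against 74.2% of all windows with a match. A match is a description of letters, and the counts per gene do not say which start was used.

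Ikzf1 and Ikzf3, the members known to act in pre-B cells, were both higher in shMyb. In the control libraries Ikzf1 reached 226 and 224 CPM, against 313 and 334 CPM in shMyb. Both shMyb libraries were above both shLuc libraries, and the control libraries were nearly level. The group means were 225 ± 0.963 and 324 ± 14.7 CPM (SD, n = 2 each), a log2 fold change of 0.53 (SE 0.04, 95% interval 0.45 to 0.60, edgeR adjusted p = 1.2e-11). These were among the better measured genes of the files, with 9016 to 12549 counts per library. Ikzf1 stayed called higher under all 16 alternative settings. A change in the mix of cells and a change in RNA per cell cannot be told apart in such bulk libraries.

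The Ikzf3 level was 406 and 387 CPM in the shLuc libraries and 449 and 459 CPM in those labelled shMyb. The groups did not overlap here either, but the step was smaller. Its means were 397 ± 13.4 and 454 ± 7.16 CPM (SD, n = 2 each), a log2 fold change of 0.19 (SE 0.04, 95% interval 0.12 to 0.27, edgeR adjusted p = 7.3e-05). A test against a change of 1.2-fold, which asks for more than a difference from 0, did not call Ikzf3 (edgeR adjusted p = 1), while it did call Ikzf1 (3.8e-07).

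**Figure D1:**
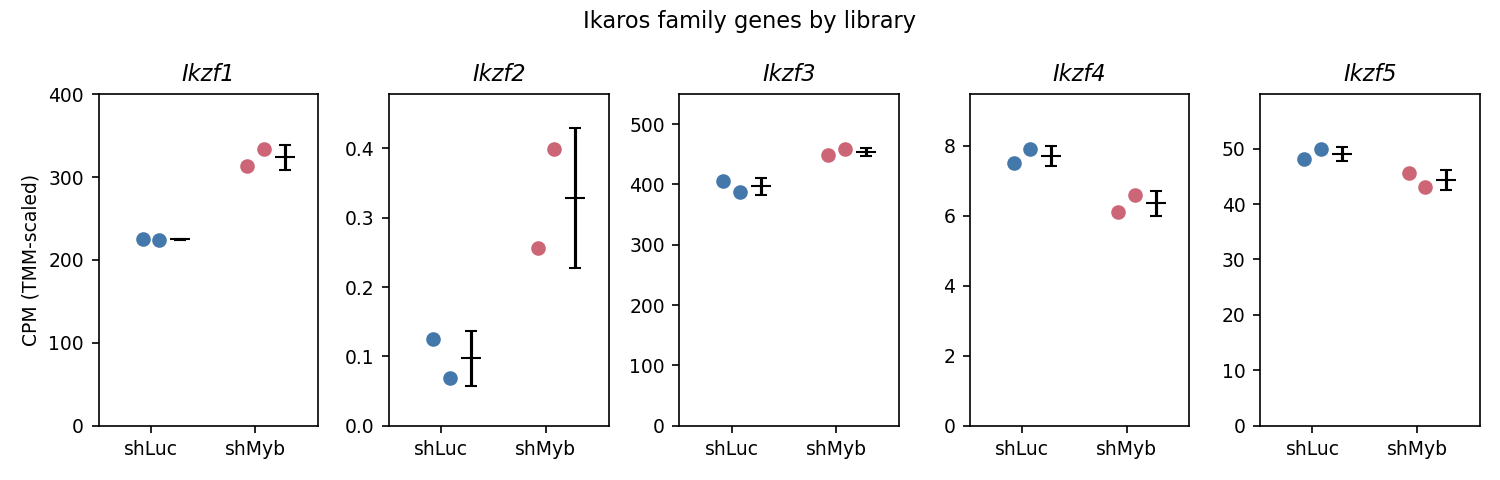
CPM of the 5 family genes in each library (points, linear axes from 0, each panel with its own scale), with the mean and SD of the 2 libraries per group beside them. Ikzf1, Ikzf2 and Ikzf3 are higher in both shMyb libraries, Ikzf4 and Ikzf5 lower, and Ikzf2 stays under 0.4 CPM throughout.

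The balance of the 2 genes shifted towards Ikzf1. Ikzf3 counts divided by Ikzf1 counts in the same library, a ratio that needs no scaling between libraries, were 1.80 and 1.73 in shLuc and 1.43 and 1.37 in shMyb. Both shMyb libraries lay below both controls. Among single genes, the groups of 82.1% of those tested did not overlap. On the log2 scale the mean ratio went from 0.82 ± 0.04 to 0.49 ± 0.04 (SD, n = 2 each), a difference of -0.33, several times the SD within a group. The difference follows from the fold changes of the 2 genes given above and is not a separate result. An exact permutation test of 2 libraries against 2 cannot go below a two-sided p of 0.33, so no p is given for it. Leaving out each library in turn gave -0.36 to -0.30.

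Ikzf2 was almost silent. It had 5 and 3 counts in shLuc and 10 and 15 counts in shMyb, which is 0.125 and 0.0688 CPM against 0.257 and 0.399 CPM. Every shMyb value was above every shLuc value, at levels where a few reads decide. The fitted difference was 1.74 on the log2 scale (SE 0.60, 95% interval 0.50 to 2.98, edgeR adjusted p = 0.0148). Over summed counts, 25 against 8, the ratio was 3.41 with an exact 95% interval of 1.49 to 8.75, which covers counting error only. Ikzf2 passed the filter only through the shMyb libraries, the group where it was higher, and it was under the minimum in both controls. Its call ended with DESeq2 (adjusted p = 0.153), without shLuc replicate 2 (1.35, edgeR adjusted p = 0.128) or shMyb replicate 2 (1.39, 0.178), and after the trend correction (1.00, 0.139).

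Markers of T cells, where Helios is best known, gave no common direction beside it. Of 12 T cell markers, Cd4, Cd8a and Cd8b1 were at 0 counts in all 4 libraries, and Cd3d, Cd3e and Cd3g were at no more than 0.0533 CPM. The summed level of the list was 139.9 to 142 CPM in shLuc and 118 to 121 CPM in shMyb. Most of it came from Lat, Zap70 and Thy1. In shLuc these were at 96.2 and 99.1, 25.6 and 26.0, and 12.9 and 11.7 CPM. In shMyb they were at 42.8 and 44.3, 10.3 and 9.48, and 62.5 and 58.7 CPM. Of the 6 markers that were tested, Thy1 rose and the adaptor gene Lat and the kinase gene Zap70 fell (2.30, -1.17 and -1.38); these 3 are named because they were the only calls. Foxp3, which defines regulatory T cells, was at 0.100 CPM or less, and none of the 3 tested markers of those cells rose while 2 fell. Over all tested genes 30.6% were called higher and 31.7% lower.

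Ikzf4 and Ikzf5 were lower in shMyb. Levels of Ikzf4 were 7.51 and 7.92 CPM for shLuc against 6.11 and 6.60 CPM for shMyb, from 238 to 345 counts per library. The groups were apart, by more than the distance between duplicates. Its means were 7.71 ± 0.290 and 6.36 ± 0.351 CPM (SD, n = 2 each) and its log2 fold change -0.28 (SE 0.10, 95% interval -0.49 to -0.07, edgeR adjusted p = 0.0202). The call ended without shLuc replicate 2 (-0.25, edgeR adjusted p = 0.118) or shMyb replicate 1 (-0.23, 0.120), with DESeq2 (-0.29, 0.158) and with library totals in place of TMM (-0.22, 0.0720).

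For Ikzf5 the libraries gave 48.1 and 49.96 CPM (shLuc) and 45.6 and 43.0 CPM (shMyb). Each control library was above each shMyb library, by a gap no wider than that between the shMyb duplicates. Its means were 49.0 ± 1.32 and 44.3 ± 1.82 CPM (SD, n = 2 each), a log2 fold change of -0.15 (SE 0.05, 95% interval -0.24 to -0.05, edgeR adjusted p = 0.00850). Pstk, the gene that shares Ikzf5's exons, fell from 12.3 and 11.7 CPM to 8.72 and 8.71 CPM (log2 fold change -0.46, SE 0.08, edgeR adjusted p = 3.5e-05), and its part in the Ikzf5 value was not tested. The Ikzf5 call ended without shLuc replicate 2 (-0.13, edgeR adjusted p = 0.0712) or shMyb replicate 2 (-0.11, 0.100), with DESeq2 (-0.16, 0.0693), with library totals (-0.08, 0.109) and after correction for GC content and length (-0.10, 0.0704).

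In this comparison 62.2% of tested genes were called, 30.6% higher and 31.7% lower. Among the members Ikzf1 and Ikzf3 were called higher and Ikzf4 and Ikzf5 lower, while Ikzf2, also called higher, entered the test only through the group where it was high. The groups of 82.1% of tested genes did not overlap, nor did those of any member. These counts are thus not a result about the family. Of all tested genes, 16.2% rose further than Ikzf1 and 31.2% further than Ikzf3, as a log2 fold change of any call, while 17.8% were lower than Ikzf4 and 31.5% lower than Ikzf5.

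**Figure D2:**
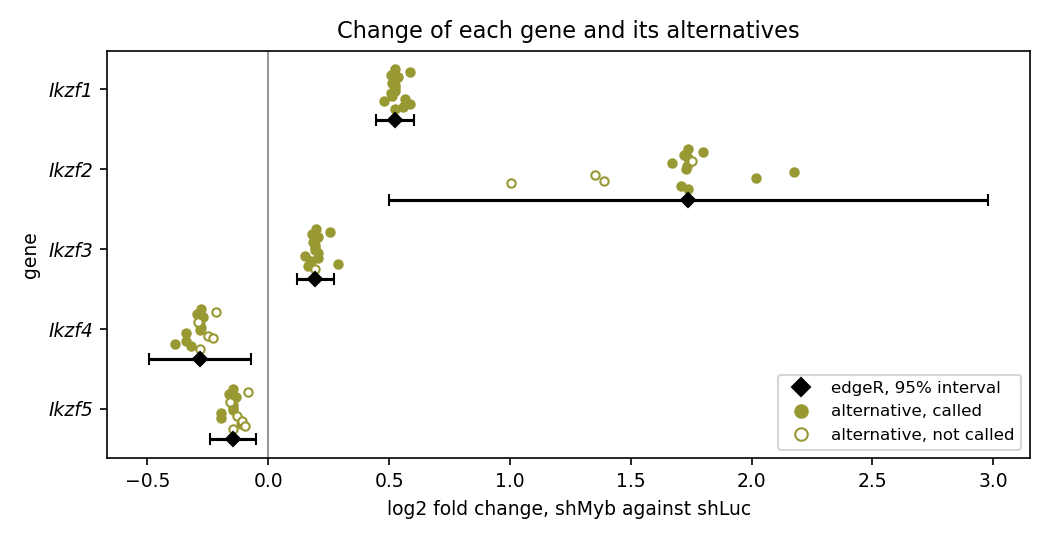
Log2 fold change of each family gene, shMyb against shLuc (horizontal axis). Diamonds with bars are the edgeR value and its 95% interval, and points are the alternative settings, filled where the gene was called. No point crosses 0, all points of Ikzf1 are filled, and Ikzf2 spans 1.00 to 2.18.

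Set per length, the family's transcripts as counted were mostly Ikaros and Aiolos, with the level of Ikzf5 uncertain. CPM was divided by the joint length of all annotated exons in kb, and levels in this paragraph are on that scale unless named otherwise. In shLuc the order was Ikzf3 at 45.3 ± 1.53, Ikzf1 at 38.9 ± 0.167, Ikzf5 at 8.57 ± 0.230, Ikzf4 at 1.29 ± 0.0484 and Ikzf2 at 0.00835 ± 0.00343 CPM per kb (SD, n = 2 each). Neighbours in this order differed by more than their SD. In shMyb the first pair changed places, with Ikzf1 at 56.0 ± 2.54 and Ikzf3 at 51.8 ± 0.818 CPM per kb, and their libraries did not overlap. Ikzf5 followed at 7.74 ± 0.318, Ikzf4 at 1.06 ± 0.0585 and Ikzf2 at 0.0282 ± 0.00869 CPM per kb. The place of Ikzf3 rests on the length used. Its exons join to 8754 bases while its longest transcript has 4607, and per kb of the longest transcript Ikzf3 stayed first in both groups, at 86.1 against 43.6 for Ikzf1 in shLuc and 98.5 against 62.7 in shMyb. The counts do not say which transcripts were present, and Ikaros isoforms without DNA-binding fingers cannot be told from full-length ones. The level and place of Ikzf5 have a further limit. Pstk shares 81.3% of Ikzf5's exon length, so reads from that stretch may be missing or mixed. The level of Ikzf5 on its unshared exons was not tested.

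The make-up of the family total moved with this. Ikzf1 made up 41.1% and 41.7% of the summed CPM per kb in shLuc and 47.4% and 48.6% in shMyb. Ikzf3 went from 48.8% and 47.5% to 44.8% and 44.1%, and Ikzf5 from 8.84% and 9.38% to 6.96% and 6.32%. In each of these 3 the groups were apart. The family sum itself was 95.1 and 93.1 CPM per kb in shLuc and 115 and 119 in shMyb. These shares and sums are per kb of all annotated exons. All of them include the Ikzf5 level, which is uncertain because of the exons shared with Pstk. How far this moves the shares was not tested. Per kb of the longest transcript, the mean share of Ikzf1 was 30.6% in shLuc and 36.3% in shMyb. For Ikzf3 it was 60.5% and 57.1%, so there Ikzf3 was the largest part in both groups.

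**Figure D3:**
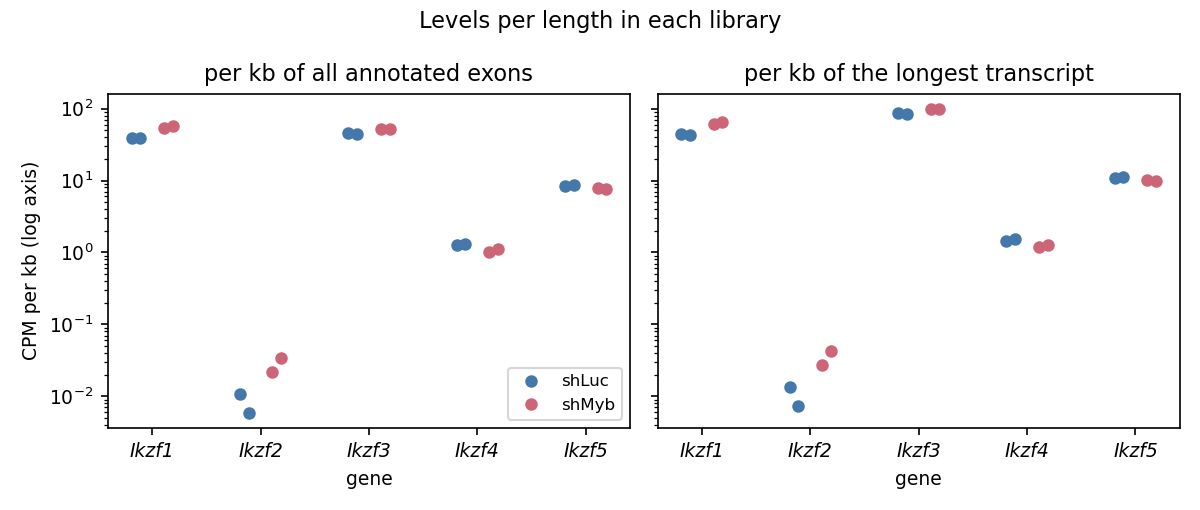
CPM per kb on a log axis for the 5 genes in each library, per kb of all annotated exons (left) and of the longest transcript (right). Ikzf1 and Ikzf3 stand above Ikzf5, Ikzf4 and Ikzf2 in both panels, and Ikzf3 exceeds Ikzf1 in shMyb only in the right one.

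The genes whose pattern over the libraries was most like each member's were taken by distance. Likeness was the Euclidean distance between log2 CPM values, each gene centred on its mean over the 4 libraries, among 8498 genes of at least 10 CPM in a group. Closest to Ikzf1 were Dgkq, a diacylglycerol kinase gene (distance 0.00800), Oas1b, an interferon-induced gene (0.0157), and Sorcs2 (0.0174), with log2 fold changes of 0.53, 0.52 and 0.52 (Sorcs2 0.35 after the GC content and length correction). Closest to Ikzf3 were Jak3, a kinase gene of the interleukin-7 receptor (0.00402), Numa1 (0.00652) and the helicase gene Eif4a2 (0.00670). After the GC content and length correction Jak3 (0.01) and Numa1 (0.05) were no longer called, while Ikzf3 was (0.16). Ikzf4 lay nearest to Mrps33, Pusl1 and Orc6, an origin recognition gene, at distances of 0.0179 to 0.0276. The GC content and length correction took Mrps33 from -0.28 to -0.13, no longer called, and Orc6 from -0.26 to -0.13, still called. Among the genes near Ikzf5 were Rab6a (0.00778) and Anapc5 (0.0115), whose calls ended with that correction for Rab6a (-0.05) and with the trend correction for Anapc5 (-0.04). With 4 libraries many genes share such a pattern, and these distances are a description.

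Among genes known to act on the Ikzf genes or beside them, more were called higher than lower. Among 10 such transcription factors 6 rose, 1 fell and the other 3 passed no threshold. Their median log2 fold change was 0.12, and that of all tested genes 0.0048. Of all tested genes 30.6% were called higher and 31.7% lower. With the 1.2-fold test 2 of the 10 were called higher. Those that rose were led by Irf4, a known activator of Ikzf1 and Ikzf3, from 97.2 and 101 to 232 and 233 CPM (1.23). Sfpi1, which encodes PU.1, rose from 32.4 and 31.6 to 50.04 and 49.4 CPM (0.64), and Pax5, the B-lineage commitment factor, by 0.21 (0.14 after the GC content and length correction). Irf8 fell from 553 and 554 to 438 and 433 CPM (-0.34). In a line labelled deficient for Irf4 and Irf8 these are transcripts as counted, and whether they encode protein is not shown by counts.

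Corepressor partners had no common direction that held under every scaling. Of 19 genes of NuRD and other partners 9 fell and 3 rose, with 7 uncalled (median -0.10). Beside this, 31.7% of all tested genes were called lower and 30.6% higher. Mbd2, which links NuRD to methylated DNA, fell from 319 and 325 to 205 and 193 CPM (-0.70, SE 0.04). The histone-binding subunit gene Rbbp7 and the deacetylase gene Hdac2 fell by 0.35 and 0.32, and Rbbp7 was at -0.22 after the GC content and length correction. Chd3, 1 of the NuRD helicase genes, rose from 276 and 264 to 358 and 377 CPM (0.45, SE 0.04; 0.29 after that correction). Smarca4 (0.13) and Ctbp2 (1.73, at no more than 1.46 CPM) also rose and were added after their values were seen. The Smarca4 call ended without shLuc replicate 2 (0.11) and after the same correction (0.01). The balance depended on scaling. With library totals 6 rose and 6 fell, after the trend correction 6 rose and 5 fell, and with the 1.2-fold test 2 did each.

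Genes that Ikaros or Aiolos is known to hold down in B-lineage cells were mostly lower. Of 18 such genes 17 were tested, of which 12 fell and 3 rose, with 2 uncalled (median -0.29). Of all tested genes 31.7% were called lower and 30.6% higher. With the 1.2-fold test 8 of the list were called lower. Dntt, which encodes terminal transferase, fell from 1249 and 1289 to 684 and 681 CPM (-0.89, SE 0.04), the smallest p of the list. Myc fell by 0.57 and the cyclin gene Ccnd3 by 0.39, and the groups of each were apart. With the trend correction Ccnd3 was at -0.23, still called. The sugar transporter gene Slc2a6 rose from 3.33 and 4.15 to 8.72 and 8.84 CPM (1.23, SE 0.12). The hexokinase gene Hk2 (0.22) and the insulin receptor gene Insr (0.19, edgeR adjusted p = 0.0462) also rose, while the glucose transporter gene Slc2a1 fell by 0.34; these 3 are named after their values were seen. Insr was not called without shLuc replicate 2 (0.08) or after the GC content and length correction (0.11). The list was drawn up with results of these data known, so its direction is no independent evidence about Ikaros activity.

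Genes that Ikaros is known to raise were mostly higher. Of 9 such genes 6 rose and 2 fell, with 1 uncalled (median 0.29). Over all tested genes 30.6% were called higher and 31.7% lower. With the 1.2-fold test 3 of the 9 were called higher. Besides Irf4, which stands in both lists, Txnip, a brake on glucose uptake, rose from 122 and 128 to 254 and 236 CPM (0.97, SE 0.04). The CDK inhibitor gene Cdkn1b rose from 107 and 101 to 126 and 133 CPM (0.31, SE 0.04). The glucocorticoid receptor gene Nr3c1 fell from 167 and 161 to 132 and 127 CPM (-0.34, SE 0.04). The adaptor gene Blnk, named because only 2 fell, went down by 0.09 (edgeR adjusted p = 0.0379). That call ended under 8 of the 16 alternatives, among them leaving out shLuc replicate 2 (-0.10) or shMyb replicate 2 (-0.06). Its value after the trend correction was 0.0082. This list too was drawn up with earlier results known.

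**Figure D4:**
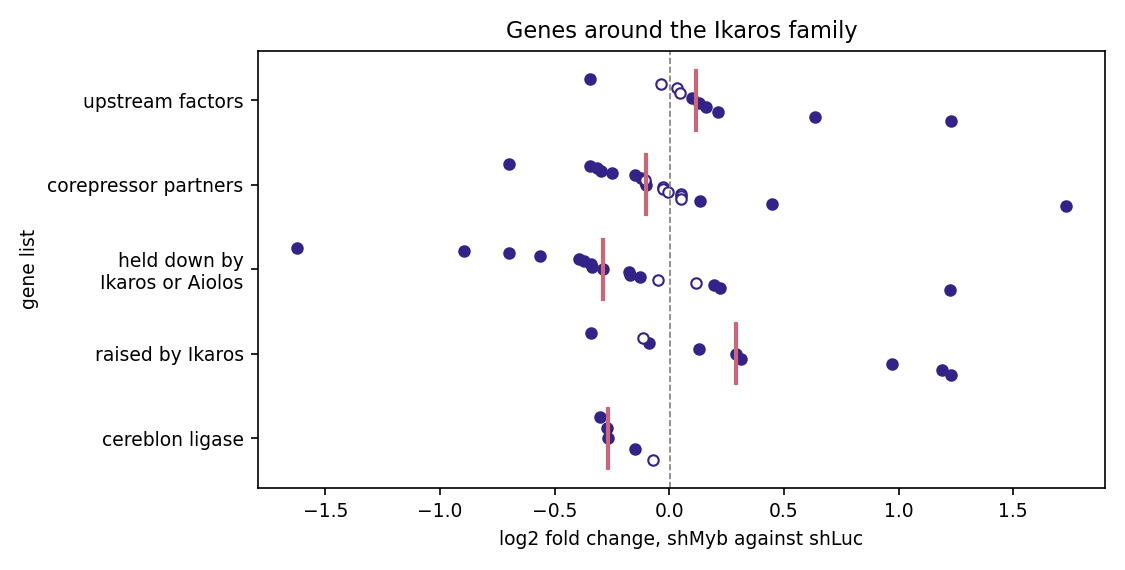
Log2 fold changes, shMyb against shLuc, of the genes in 5 lists around the Ikaros family (points, filled where called), with each list's median (vertical bar) and the median of all tested genes (dashed line, at 0.0048). Medians lie at 0.12, -0.10, -0.29, 0.29 and -0.27 from top to bottom, with members on both sides of 0 in the first 4 lists.

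Markers of the labelled B lineage were present in all libraries. Of 10 such markers 5 rose and 4 fell, where 30.6% of all tested genes were called higher and 31.7% lower. Their summed level was 5169 to 5234 CPM in shLuc and 5104 to 5179 CPM in shMyb. Summed levels over 8 NK cell genes were 1.14 to 1.74 CPM, with 1 of 3 tested called lower. Over 9 erythroid and megakaryocyte genes they were 2.39 to 5.08 CPM in shLuc and 7.26 to 9.93 CPM in shMyb, and neither of the 2 tested was called. For 11 myeloid genes the sum was 3.33 to 4.28 CPM in shLuc and 7.18 to 8.68 CPM in shMyb, with Elane and Cebpe at 0. Of the 6 tested 4 were called higher, beside the 30.6% of all tested genes. The sum of 12 stromal genes, the OP9 feeder type, was 53.8 to 69.3 CPM in shLuc and 50.4 to 57.5 CPM in shMyb, with 2 of 10 tested called higher and 2 lower. Their part in the family's values was not tested. Libraries totalled 36573743 to 44682954 counts. A count of 0 allows a level of up to 3 counts, which is 0.0688 to 0.0799 CPM, for counting error only.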

How the data were processed

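RNA-seq libraries, 2 per group, were assigned by their titles. The authors deposited raw counts by gene symbol, with a file for each library. Tools listed in the submitters' processing notes are FastQC, STAR, HTSeq and DESeq2, without version or role, and the build is mm10. The annotation used for counting is not given in the sources used here.

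The quasi-likelihood test of edgeR 4.0.16 (R 4.3.3) was fitted to the groups alone, after filterByExpr (minimum count 10) and TMM scaling, with the robust option on. Benjamini-Hochberg adjustment ran over 12610 genes, and an adjusted p below 0.05 was called. A standard error is the log2 fold change over the square root of F. Where DESeq2 or limma-voom is named, versions were 1.42.0 and 3.58.1. The test was checked on simulated data. Exon lengths and coordinates come from GENCODE M21, which matched 21751 symbols by name and 1276 by an older one, leaving 391.

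Members and gene lists were chosen with earlier results of these data known. Genes named were the 5 members, up to 4 of smallest p per list (all of a list of 5), the 3 nearest profiles per member of at least 5 CPM, and Myb; others are marked as added, and 1 gene that this rule took is not reported here. The spread behind each p is that between duplicate sets of wells. Alternatives changed scaling, filter, tool, replicate block, libraries, abundance trend, GC content with length, and the fold tested.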

Additional observations from a re-analysis of the deposited data

How the results depend on the processing

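Ikzf1 kept its call under all 16 alternatives (0.48 to 0.59), Ikzf3 under 15, Ikzf4 under 11 and Ikzf5 under 10. Ikzf2 kept its call under 11 of 15, and it did not pass the 1 CPM filter. Since Ikzf2 entered the main test only through shMyb, the group where it was high, its tally is no support for its call. No member changed direction. Against a change of 1.2-fold 3160 genes were called in place of 7849, and Ikzf3 (0.19, adjusted p = 1), Ikzf4 (-0.28, 0.490) and Ikzf5 (-0.15, 1) were not, since that test asks for more. With DESeq2 Ikzf2 (1.75), Ikzf4 (-0.29) and Ikzf5 (-0.16) were not called, with library totals Ikzf4 (-0.22) and Ikzf5 (-0.0842) were not, after the trend correction Ikzf2 (1.00) was not and after the GC content and length correction Ikzf5 (-0.10) was not; the cause was not tested. Library totals moved the median of all tested genes from 0.0048 to 0.07 and made 60.1% of called genes higher, against 49.1% with TMM. Leaving out each library gave 6626 to 7481 called genes, Ikzf1 0.48 to 0.57, Ikzf2 1.35 to 2.18, Ikzf3 0.15 to 0.21, Ikzf4 -0.34 to -0.23 and Ikzf5 -0.20 to -0.11; an arm of 1 library was assumed to vary like the other. The mean log2 level of Ikzf3 over Ikzf1 per length in shMyb turned from -0.11 to 0.65 with the longest transcript. Cul4b turned from -0.07 to 0.0240 with the GC content and length correction, and Blnk from -0.09 to 0.0082 with the trend correction. Same-numbered libraries did not deviate together (correlation -0.17 over tested genes). With duplicates only, that correlation cannot show whether any libraries shared a day or batch. A replicate block left 7341 called genes and kept all 5 members' calls, that of Ikzf2 with the limit above. Among other genes named, the calls of Blnk (-0.09, edgeR adjusted p = 0.145) and Smarca4 (0.13, 0.0536) ended with it. A crossed block, added after seeing the data, gave 8593. The GC and length correction covered 99.1% of tested genes. Depth limits Ikzf2 most, with 33 counts in all.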

Other observations

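The cereblon ligase, which in human cells is turned on Ikaros and Aiolos protein by lenalidomide-type drugs, was mostly lower at the transcript level in shMyb. Of its 5 listed genes 4 fell, none rose and 1 was not called (median log2 fold change -0.27), where 31.7% of all tested genes were called lower. The substrate receptor gene Crbn went from 66.9 and 67.8 to 57.1 and 54.4 CPM (-0.27, SE 0.04, edgeR adjusted p = 5.5e-06). The adaptor gene Ddb1 fell by 0.27, the RING subunit gene Rbx1 by 0.30 and the scaffold gene Cul4a by 0.15, while Cul4b was at -0.07 (edgeR adjusted p = 0.0976). Without shLuc replicate 1 Cul4b was called lower (-0.13, edgeR adjusted p = 0.0206), as it was with a crossed replicate block. With the trend correction Ddb1 was at -0.15, and with library totals Cul4a was at -0.09, both still called. Against a change of 1.2-fold, 0 of the 5 were called by edgeR, while all 4 calls are at adjusted p of 0.00136 or less without that margin.

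Of 5 plasma cell markers 4 were tested and all 4 fell (median -0.36), beside 31.7% of all tested genes called lower. Against a change of 1.2-fold 1 of them was called. They were Sdc1, Prdm1, Xbp1 and Igj, and the sum of the 5 went from 381 and 386 CPM to 302 and 319 CPM. Tnfrsf17, the fifth, was at no more than 0.0533 CPM.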
